A study of Homo sapiens with 24 samples.

Results

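CYP1B1, CYP1A1, AHR, ARNT and TIPARP are 5 genes of the aryl hydrocarbon receptor pathway, chosen by name from the 29744 genes of the deposited table. CYP1B1 was put forward because an earlier reading of the same libraries had it lower in genome-doubled cells of both lines, so its values against control are given as a description without a test. The other 4 were named with it as genes of its pathway, also with earlier results of these libraries known. RNA came from 24 libraries of HCC1806 and MDA-MB-231, established human cell lines of triple-negative breast cancer (lacking oestrogen receptor, progesterone receptor and HER2), read by TAGseq, a method that sequences the 3′ ends of polyadenylated transcripts. In each line there were 3 whole-genome-doubled populations, which arose through fusion of cells, through mitotic slippage (exit from mitosis with no division) or through cytokinesis failure (division of the nucleus but not of the cell), and which had been isolated by flow sorting and then expanded. The fourth group of each line, the control, was the parental aneuploid population. Every group had 3 biological replicates, all grown for 48 hours in 6-well plates with no further treatment, so no receptor ligand was given as a treatment at that step. For each route the labels name 1 doubled population in a line, and an effect of the route and a property of that population cannot be told apart.

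The aryl hydrocarbon receptor, encoded by AHR, waits in the cytoplasm with HSP90 chaperones until it binds a ligand such as dioxin, a combustion hydrocarbon or a tryptophan metabolite. It then enters the nucleus, pairs with ARNT and binds DNA elements with the core GCGTG beside genes such as CYP1A1, CYP1B1, TIPARP and AHRR. CYP1A1 and CYP1B1 are P450 enzymes that oxidise polycyclic hydrocarbons and oestradiol, and CYP1B1 is the form most often described in breast tumours. TIPARP (also called PARP7) is a mono-ADP-ribosyltransferase that is induced by the receptor and dampens it, as does the repressor AHRR.

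Library totals ran from 3060622 to 4030297 estimated counts in HCC1806 and from 2455707 to 3837957 in MDA-MB-231. Per library, CYP1B1 had 417 to 1597 counts, AHR 400 to 668, ARNT 66 to 136, TIPARP 32 to 144 and CYP1A1 only 4 to 54, which sets how fine a difference each can show. All 5 genes passed the filter on low counts in both lines. Levels are in CPM, counts scaled by library size and TMM factor, on one scale for all 24 libraries. Fold changes are log2 values ± their standard error, from edgeR's quasi-likelihood test. A gene is called, or said to rise or fall, at a Benjamini-Hochberg adjusted p below 0.05 over all genes tested, 11467 in HCC1806 and 11424 in MDA-MB-231. Of the identity markers listed, 10 of 10 basal epithelial genes reached their highest count in HCC1806 and 6 of 8 mesenchymal genes in MDA-MB-231. KRT5 reached 1934 counts in HCC1806 and 1 in MDA-MB-231, and VIM 7 and 11262, while the mesenchymal-list genes CAV1 (3873 and 2821) and CD44 (5666 and 1813) were higher in HCC1806. Some basal keratins fell in doubled HCC1806 cells. KRT14 had fold changes of -0.59, -0.63 and -1.80 after fusion, slippage and cytokinesis failure (edgeR adjusted p = 9.57e-12, 2.75e-12 and 4.13e-37). KRT6A had -0.52 in slippage and -1.36 in cytokinesis failure (edgeR adjusted p = 3.56e-12 and 4.43e-36), and was not called in fusion (-0.05, edgeR adjusted p = 0.632). The basal list moved both ways. Of its 10 genes, 1 rose and 4 fell in fusion, 1 rose and 2 fell in slippage, and 3 rose and 3 fell in cytokinesis failure. The shares of all genes called there were 10.9%, 3.33% and 17%. Among the MDA-MB-231 libraries, slippage replicate 3 and cytokinesis failure replicate 1 were noisier than the rest: the chi-square over degrees of freedom between replicates was 2.26 to 2.45 in the 4 pairs that hold them and 1.3 to 1.87 in the other 20 pairs. Calls and list counts that rest on them are also given without both. Of the markers of other cells, CD3E and NKG7 were at 0 in every library of both lines, and PTPRC had at most 1 count in HCC1806 and 3 in MDA-MB-231.

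CYP1B1 was lower than control in 5 of the 6 doubled populations, at 57.9% to 90.5% of the control level, and was not lower in HCC1806 cells doubled by mitotic slippage. The name under which the gene was chosen, lower in doubled cells, therefore does not describe that population. In HCC1806, the level of CYP1B1 was 131, 137 and 132 CPM in fusion cells and 140, 148 and 144 CPM after cytokinesis failure. Slippage cells had 262, 244 and 250 CPM, and control cells had 225, 253 and 216 CPM. Every fusion and cytokinesis failure library lay below every control library, while the slippage and control libraries overlapped. The fold changes against control were -0.79 ± 0.059 in fusion, -0.68 ± 0.057 in cytokinesis failure and 0.13 ± 0.054 in slippage, so that fusion cells held 57.9% and cytokinesis failure cells 62.2% of the control level. In this bulk RNA, fewer cells with the transcript and less transcript per cell cannot be told apart.

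In MDA-MB-231, the level of CYP1B1 was 281, 283 and 231 CPM in fusion cells, 363, 321 and 332 CPM in slippage cells and 378, 359 and 392 CPM after cytokinesis failure, against 408, 429 and 413 CPM in control cells. All 9 doubled libraries lay below all 3 control libraries, with fusion the lowest. The fold changes against control were -0.65 ± 0.062 in fusion (63.5% of the control level), -0.30 ± 0.061 in slippage (81.5%) and -0.14 ± 0.061 in cytokinesis failure (90.5%). Without both noisier libraries these were -0.28 in slippage and -0.15 in cytokinesis failure. The 3 comparisons of a line share its control libraries. The lowest mean of both lines was that of fusion, while the mean of slippage lay above that of cytokinesis failure in HCC1806 and below it in MDA-MB-231. As background without a reading for CYP1B1, the share of all genes called against control was 10.9% for fusion, 3.33% for slippage and 17% for cytokinesis failure of HCC1806, and 17.4%, 6.18% and 4.64% in the same populations of MDA-MB-231.

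**Figure D1:**
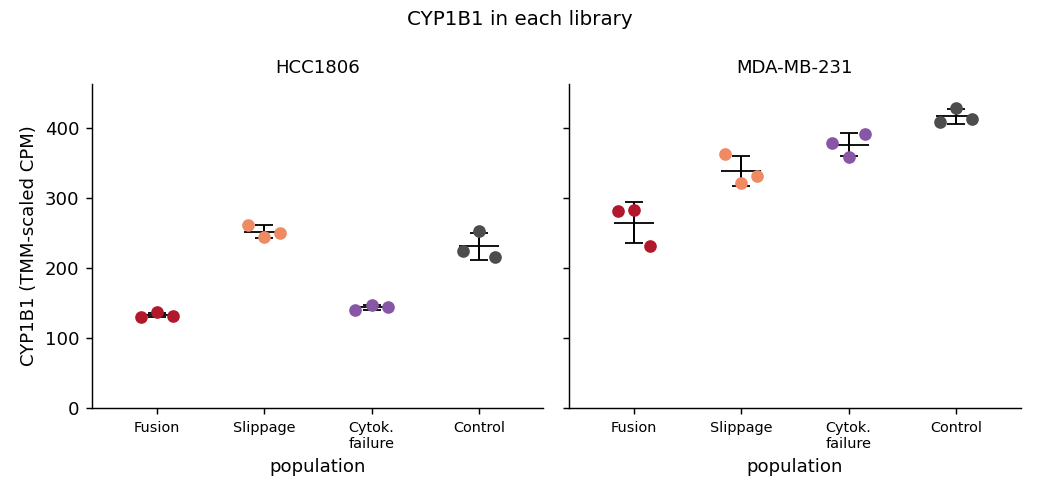
CYP1B1 level (y axis, TMM-scaled CPM, from 0) in each of the 24 libraries, by population (x axis) and line (panels). Points are libraries, and bars give the mean and SD of 3 replicates. HCC1806 fusion and cytokinesis failure libraries sit between 131 and 148 CPM, below the control libraries at 216 to 253 CPM, and in MDA-MB-231 all doubled libraries sit below the control libraries at 408 to 429 CPM.

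The doubled populations of one line were compared with each other without the control. The choice of CYP1B1 rested on its level against control and so used these same doubled libraries. The p-values given here are therefore not independent of that choice. In HCC1806, CYP1B1 was lower in fusion than in slippage by a log2 fold change of -0.92 ± 0.058 (edgeR adjusted p = 1.9e-23), with 52.9% of the slippage level. It was also lower in cytokinesis failure than in slippage, at -0.82 ± 0.056 (edgeR adjusted p = 3.33e-21). Fusion and cytokinesis failure differed by -0.10 ± 0.061 (95% interval -0.22 to 0.02), which did not pass the test (edgeR adjusted p = 0.257), although their libraries did not overlap. In MDA-MB-231, CYP1B1 was lower in fusion than in slippage (-0.36 ± 0.063, edgeR adjusted p = 6.51e-05) and than in cytokinesis failure (-0.51 ± 0.063, edgeR adjusted p = 9.43e-08). With both noisier libraries left out these were -0.37 and -0.51 (edgeR adjusted p = 0.00202 and 6.64e-05). The difference of cytokinesis failure from slippage, 0.15 ± 0.061 (95% interval 0.03 to 0.27), did not pass (edgeR adjusted p = 0.198).

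Calls between these populations were common: of all genes, 9.23% were called between fusion and slippage, 6.8% between cytokinesis failure and slippage and 17.9% between fusion and cytokinesis failure in HCC1806. In MDA-MB-231 the shares were 17.1%, 3.18% and 24.5% for the same contrasts. The 4 CYP1B1 calls were made at every omission of 1 replicate, with edgeR adjusted p of at most 0.00181. Those omissions reuse the doubled libraries on which the gene was chosen, so they lend no independent support. CYP1B1 also differed between the parental populations: HCC1806 control cells averaged 232 ± 19.2 CPM and MDA-MB-231 control cells 417 ± 10.6 CPM (SD, n = 3 libraries each), a fold change of -0.85 ± 0.057 (edgeR adjusted p = 3.23e-22), in a comparison where 76.2% of 12563 genes were called.

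The changes of CYP1B1 in the 2 lines lay closest for fusion. The HCC1806 change minus the MDA-MB-231 change was -0.14 ± 0.086 for fusion, 0.43 ± 0.081 for slippage and -0.54 ± 0.083 for cytokinesis failure. These values come from the contrast that chose the gene and carry no test. They were 0.41 for slippage and -0.53 for cytokinesis failure without both noisier libraries. The fusion value was -0.23 without replicate 3 of MDA-MB-231 fusion, the library with the lowest CYP1B1 level of that group.

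CYP1A1, the most widely used readout of receptor activity, was scarce in both lines and fell in 2 of the 3 doubled populations of MDA-MB-231. Its level in MDA-MB-231 was 6.66, 6.45 and 4.6 CPM in slippage cells and 7.46, 6.37 and 5.12 CPM after cytokinesis failure, against 9.64, 8.95 and 14 CPM in control cells. The fold changes were -0.88 ± 0.24 in slippage (edgeR adjusted p = 0.0179) and -0.81 ± 0.24 in cytokinesis failure (edgeR adjusted p = 0.0353). Fusion cells had 7.84, 8.16 and 6.23 CPM, a difference of -0.56 ± 0.23 that did not pass (edgeR adjusted p = 0.0903). All 9 doubled libraries lay below all control libraries.

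The CYP1A1 calls rest on 16 to 54 counts per library and on control replicate 3, which had the highest level. Without that library the fold change was -0.64 in slippage (edgeR adjusted p = 0.198) and -0.58 in cytokinesis failure (edgeR adjusted p = 0.302). The slippage call was also lost without both noisier libraries (-0.73, edgeR adjusted p = 0.0773), where that of cytokinesis failure was -0.92 (0.0192). The cytokinesis failure call was lost without its replicate 2 or 3 (edgeR adjusted p = 0.0989 and 0.168), under the replicate block (0.0569) and on both TPM scales (limma adjusted p = 0.0795 and 0.0935). In HCC1806, CYP1A1 had 3.08, 4.25 and 1.27 CPM in fusion, 2.56, 2.32 and 4.51 CPM in slippage and 4.19, 4.09 and 4.14 CPM in cytokinesis failure, against 4.56, 4.86 and 3.23 CPM in control, and the groups overlapped throughout. The 95% interval of the fusion difference ran from -1.25 to 0.21 on the log2 scale, so a lower level within that range was not excluded. Between the parental populations CYP1A1 was lower in HCC1806, with a fold change of -1.38 ± 0.27 (edgeR adjusted p = 3.5e-06).

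The promoter region of CYP1A1 is shown because it holds the core letters of the receptor element. The annotated gene lies at chr15:74719542-74725528 of GRCh38.p14 on the minus strand, and the 250 bases before its start are chr15:74725529-74725778, here 5′ to 3′ on the gene's strand from RefSeq with the core GCGTG in capitals.
CYP1A1: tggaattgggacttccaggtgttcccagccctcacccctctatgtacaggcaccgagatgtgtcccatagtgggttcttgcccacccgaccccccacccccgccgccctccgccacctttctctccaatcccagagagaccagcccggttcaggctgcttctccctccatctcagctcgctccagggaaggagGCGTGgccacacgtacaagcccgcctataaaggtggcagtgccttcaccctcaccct
TIPARP, at chr3:156674590-156706770 on the plus strand, has the core in the reverse orientation, CACGC, 2 times in the 250 bases before its first annotated start, chr3:156674340-156674589.
TIPARP: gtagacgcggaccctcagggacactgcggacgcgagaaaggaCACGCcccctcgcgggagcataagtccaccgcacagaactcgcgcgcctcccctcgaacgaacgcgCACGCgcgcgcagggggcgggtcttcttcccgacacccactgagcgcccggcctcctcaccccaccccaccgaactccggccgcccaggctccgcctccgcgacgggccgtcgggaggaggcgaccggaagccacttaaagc
The motif was searched on both strands in windows from 250 bases before to 50 bases after each start, with overlapping matches counted. Of 35116 such windows over all genes, 36.5% held it at least 1 time and 12.7% at least 2 times, so a match in a window is common. The AHR window held 1 match, after the start, and the ARNT window and the other 2 TIPARP starts held none. Entries were found for 4 of the 5 genes, all but CYP1B1.

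TIPARP fell in HCC1806 fusion and cytokinesis failure cells and was not called in any doubled population of MDA-MB-231. In HCC1806 its level was 11.4, 9.72 and 13 CPM in fusion cells, 15.4, 18.3 and 17.4 CPM in slippage cells and 10.7, 11.7 and 14 CPM after cytokinesis failure, against 20.2, 20.5 and 19.7 CPM in control cells. All 9 doubled libraries lay below the 3 control libraries. The fold change was -0.82 ± 0.17 in fusion (edgeR adjusted p = 0.000312) and -0.73 ± 0.17 in cytokinesis failure (edgeR adjusted p = 0.000598), with 56.6% and 60.4% of the control level. Slippage, at -0.24 ± 0.16, did not pass (edgeR adjusted p = 0.536). TIPARP was the only one of the 4 members tested against control to be called in HCC1806, where 10.9% of all genes were called for fusion, 3.33% for slippage and 17% for cytokinesis failure.

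In MDA-MB-231, TIPARP had 38.9, 31.5 and 32.3 CPM in fusion, 30.4, 35.7 and 34.2 CPM in slippage and 38.1, 34.3 and 33.8 CPM in cytokinesis failure, against 27.5, 31.3 and 30 CPM in control. The fusion and cytokinesis failure libraries lay above all control libraries, and the slippage libraries overlapped them. The fold changes of 0.20 ± 0.12 for fusion, 0.18 ± 0.12 for slippage and 0.25 ± 0.12 for cytokinesis failure did not pass (edgeR adjusted p = 0.261, 0.432 and 0.275). The difference between the lines was itself called: the HCC1806 change minus the MDA-MB-231 change was -1.03 ± 0.21 for fusion (edgeR adjusted p = 0.000159) and -0.97 ± 0.20 for cytokinesis failure (edgeR adjusted p = 0.000303), in comparisons where 12% and 6.53% of genes were called. The value for cytokinesis failure was -0.93 without both noisier libraries (edgeR adjusted p = 0.000787). For slippage it was -0.43 ± 0.19 (edgeR adjusted p = 0.26, with 3.54% of genes called). HCC1806 and MDA-MB-231 control cells averaged 20.1 ± 0.42 and 29.6 ± 1.93 CPM (SD, n = 3 libraries each), a parental fold change of -0.56 ± 0.13 (edgeR adjusted p = 0.000135).

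Between the doubled populations of HCC1806, the mean of TIPARP was highest in slippage, as was that of CYP1B1. TIPARP was lower in fusion than in slippage, with a fold change of -0.58 ± 0.18 (edgeR adjusted p = 0.0257), a call that was lost in 4 of 6 omissions of 1 replicate, with adjusted p up to 0.152. The value for cytokinesis failure against slippage, -0.49 ± 0.17, did not pass (edgeR adjusted p = 0.0701), nor did that for fusion against cytokinesis failure, -0.09 ± 0.19 (edgeR adjusted p = 0.799). In MDA-MB-231 the 3 such differences lay between -0.04 and 0.07. The antisense gene TIPARP-AS1 shares 1124 bases with TIPARP and had at most 4 counts in any library. The strand setting of the counting is not given, and whether antisense reads were counted in TIPARP was not tested.

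**Figure D2:**
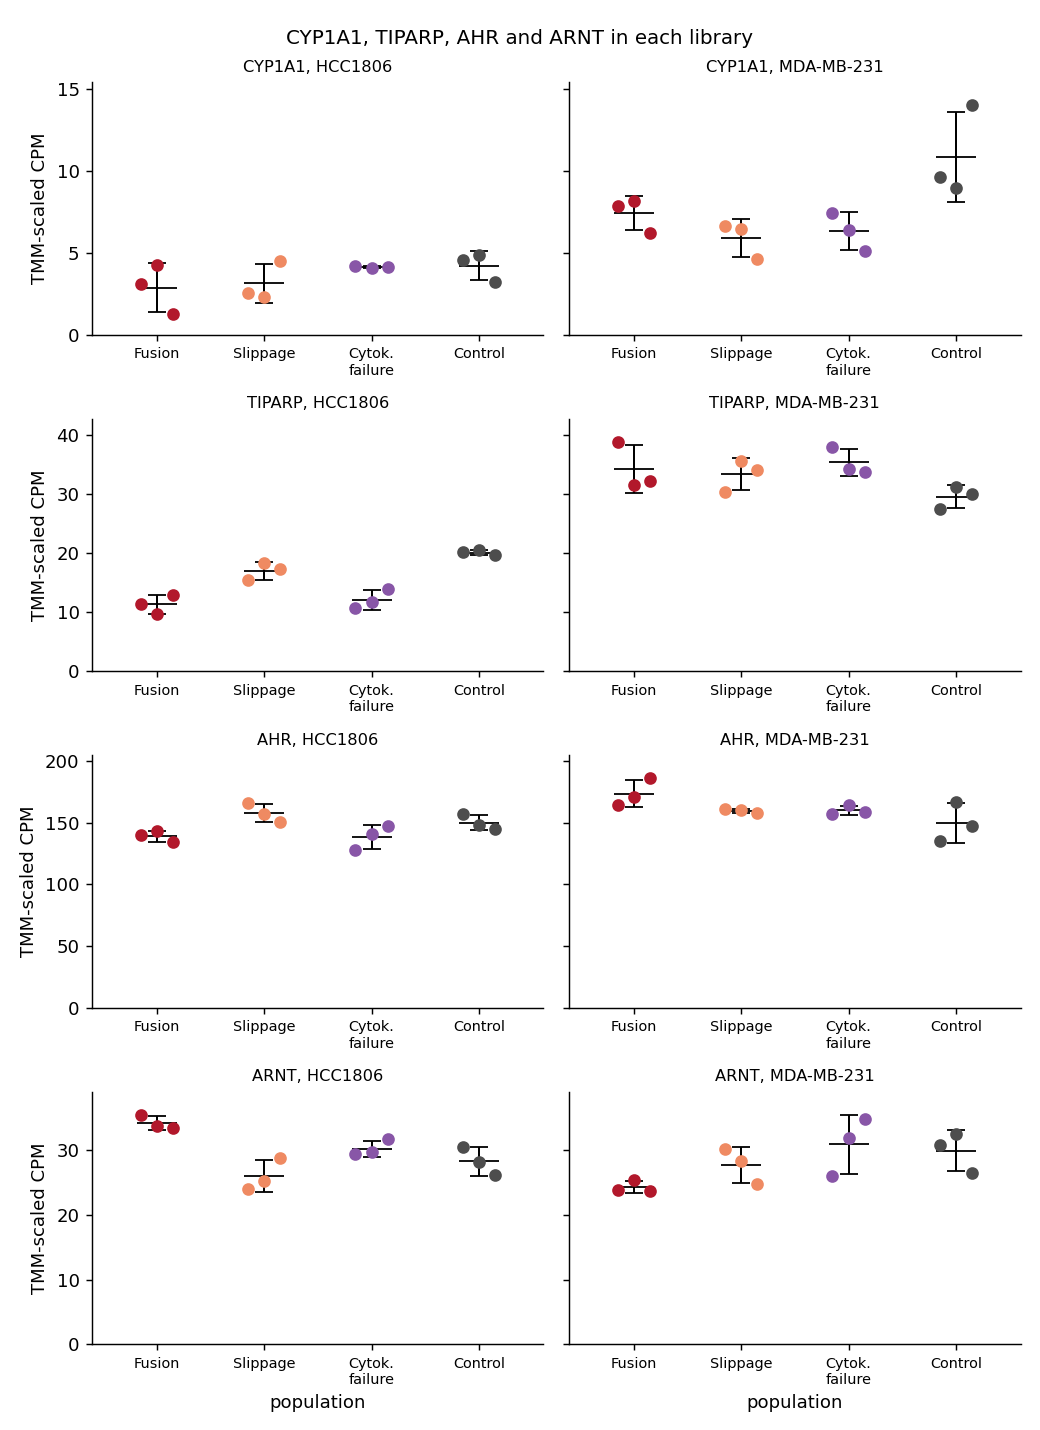
Levels of CYP1A1, TIPARP, AHR and ARNT (rows; y axis, TMM-scaled CPM, each from 0) in each library by population (x axis) and line (columns). Points are libraries, and bars give the mean and SD of 3 replicates. TIPARP in HCC1806 lies between 9.72 and 18.3 CPM in the doubled libraries and between 19.7 and 20.5 CPM in control, while AHR lies between 128 and 186 CPM in all 24 libraries.

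AHR, the receptor itself, lay between 128 and 186 CPM in all 24 libraries. In HCC1806 it had 140, 143 and 134 CPM in fusion cells, 166, 157 and 151 CPM in slippage cells and 128, 141 and 147 CPM after cytokinesis failure, against 157, 148 and 145 CPM in control cells. None of its changes against control there passed. They were -0.11 ± 0.062 for fusion, 0.08 ± 0.061 for slippage and -0.11 ± 0.061 for cytokinesis failure, with 95% intervals within -0.23 and 0.20. The parental populations of both lines were at 150 ± 6.39 and 150 ± 16 CPM in HCC1806 and MDA-MB-231 (SD, n = 3 libraries each). Their difference was 0.00 ± 0.066 (95% interval -0.13 to 0.13), in a comparison that called most genes.

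In MDA-MB-231, AHR had 164, 171 and 186 CPM in fusion cells, 161, 160 and 158 CPM in slippage cells and 157, 164 and 159 CPM after cytokinesis failure, against 135, 167 and 147 CPM in control cells. Fusion was higher than control by 0.21 ± 0.068 (edgeR adjusted p = 0.0233), although one control library lay within the fusion range. That call was lost without control replicate 1 (edgeR adjusted p = 0.208), without control replicate 3 (0.0825) or without fusion replicate 3 (0.14), and with DESeq2 (adjusted p = 0.068). It was also lost on TPM, where the AHR value was 0.09 and the median of all genes moved to -0.11, leaving 0.20 for AHR relative to that median. AHR in fusion (0.21), and CYP1A1 in slippage and cytokinesis failure, were the 3 calls of the 4 members tested against control in MDA-MB-231, where 17.4% of genes were called for fusion, 6.18% for slippage and 4.64% for cytokinesis failure.

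The AHR change with fusion differed between the lines by -0.32 ± 0.093 (HCC1806 minus MDA-MB-231, edgeR adjusted p = 0.012). This was lost without replicate 1 of MDA-MB-231 control (adjusted p = 0.0785) or replicate 3 of MDA-MB-231 fusion (0.053). Within HCC1806, AHR was lower than in slippage in fusion (-0.19 ± 0.062, edgeR adjusted p = 0.0411) and in cytokinesis failure (-0.19 ± 0.061, edgeR adjusted p = 0.0348), calls lost in 5 and 4 of 6 omissions of 1 replicate. The gene lies at chr7:17298652-17346147 and shares 669 bases with the noncoding gene LOC101927609, which reached 10 counts in any library.

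ARNT, the DNA-binding partner of the receptor and of the hypoxia factors, was called against control in 0 of 6 comparisons by edgeR and by DESeq2, and its fold changes lay between -0.29 and 0.28, with an unadjusted edgeR p of 0.0251 in HCC1806 fusion and 0.0324 in MDA-MB-231 fusion. In HCC1806 it had 35.4, 33.7 and 33.4 CPM in fusion cells, 23.9, 25.2 and 28.8 CPM in slippage cells and 29.3, 29.7 and 31.6 CPM after cytokinesis failure, against 30.5, 28.1 and 26.1 CPM in control cells. In MDA-MB-231 it had 23.8, 25.4 and 23.7 CPM in fusion cells, 30.1, 28.3 and 24.7 CPM in slippage cells and 25.9, 31.8 and 34.8 CPM after cytokinesis failure, against 30.8, 32.5 and 26.4 CPM in control cells. The fusion libraries were thus all above control in HCC1806 and all below it in MDA-MB-231.

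That opposite placing gave a difference between the lines of 0.57 ± 0.18 for fusion (HCC1806 minus MDA-MB-231, edgeR adjusted p = 0.0226). It was lost in 5 of 12 omissions of 1 replicate, with adjusted p up to 0.0736. Fusion was also higher than slippage in HCC1806 (0.39 ± 0.12, edgeR adjusted p = 0.0288) and lower than cytokinesis failure in MDA-MB-231 (-0.37 ± 0.13, edgeR adjusted p = 0.0355), each lost in 5 of 6 omissions, with adjusted p up to 0.152 and 0.21. The MDA-MB-231 value was -0.45 without both noisier libraries (edgeR adjusted p = 0.00717). ARNT lies at chr1:150809713-150876599.

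A list of 27 further genes described as receptor targets was examined beside the members, 20 of them tested in HCC1806 and 14 in MDA-MB-231. In HCC1806, 0 rose and 3 fell in slippage, 2 rose and 4 fell in fusion, and 3 rose and 9 fell in cytokinesis failure. The medians of the list were -0.10, -0.12 and -0.16 for those populations, with 0.00 for all genes. Of all genes tested in HCC1806, 1.53% rose and 1.81% fell in slippage, 5.33% rose and 5.55% fell in fusion, and 8.37% rose and 8.63% fell in cytokinesis failure. On log2(TPM + 1) with limma the split of all calls moved, to 16 higher and 67 lower in slippage (edgeR 175 and 207), 218 and 467 in fusion (edgeR 611 and 636) and 818 and 449 in cytokinesis failure (edgeR 960 and 990).

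PTGS2, which encodes the inducible cyclooxygenase, fell in all 3 doubled populations of HCC1806, with log2 fold changes of -1.11 ± 0.18 for fusion, -0.61 ± 0.17 for slippage and -2.18 ± 0.20 for cytokinesis failure (edgeR adjusted p = 2.59e-06, 0.0225 and 5.56e-15). Its level was 4.71, 5.18 and 4.4 CPM after cytokinesis failure, against 23.9, 24 and 17.5 CPM in control. SERPINB2, a plasminogen activator inhibitor, fell with fold changes of -0.34, -0.74 and -2.44 in fusion, slippage and cytokinesis failure (edgeR adjusted p = 0.0365, 5.86e-06 and 1.86e-25), to 7.06, 10.1 and 9.06 CPM in cytokinesis failure, against 47.3, 47.9 and 46.9 CPM in control. STC2, a secreted glycoprotein of the stress response, fell with fold changes of -0.54, -0.65 and -1.35 (edgeR adjusted p = 1.3e-09, 5.77e-12 and 7.19e-29). These 3 genes fell in slippage too, where CYP1B1 was not lower and TIPARP was not called. Their lowest means were in cytokinesis failure and those of CYP1B1 and TIPARP in fusion. For CYP1B1 and TIPARP the difference between fusion and cytokinesis failure did not pass (edgeR adjusted p = 0.257 and 0.799). For PTGS2, SERPINB2 and STC2 that comparison is not given here.

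VAV3, a guanine nucleotide exchange factor, rose after cytokinesis failure in HCC1806 (1.25 ± 0.37, edgeR adjusted p = 0.00967), at 7.06, 2.72 and 7.24 CPM against 2, 1.39 and 3.5 CPM in control, with replicate 2 inside the control range. DESeq2 called none of the 3 genes that rose there. PTGS2, SERPINB2, STC2 and VAV3 were too scarce to be tested in MDA-MB-231. The genes named in the next sentences were picked after their values were seen. EREG, the growth factor epiregulin, fell in HCC1806 fusion (-0.64 ± 0.076) and cytokinesis failure (-1.03 ± 0.077), where its edgeR adjusted p was 1.62e-10 and 6.71e-20. NEDD9, a focal adhesion scaffold, rose in HCC1806 cytokinesis failure (0.65 ± 0.17, edgeR adjusted p = 0.00437). The 2 target genes that rose in HCC1806 fusion are not among those named, so the named genes show only the falls of that population.

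In MDA-MB-231, 0 target genes rose and 6 of 14 fell in fusion, 0 rose and 3 fell in slippage, and 2 rose and 1 fell in cytokinesis failure. The medians were -0.32, 0.01 and 0.00, with 0.00 for all genes, of which 9.34% rose and 8.11% fell in fusion, 3.27% and 2.91% in slippage and 2.29% and 2.35% in cytokinesis failure. On log2(TPM + 1) the split of all calls in fusion was 318 higher and 1380 lower (edgeR 1067 and 926). The fusion genes included EREG (-1.43 ± 0.12, edgeR adjusted p = 6.79e-12), the drug efflux pump ABCG2 (-1.23 ± 0.17, edgeR adjusted p = 8.53e-07) and NEDD9 (-1.10 ± 0.30, edgeR adjusted p = 0.00837). After cytokinesis failure EREG was higher than control (0.40 ± 0.095, edgeR adjusted p = 0.006), as was the repressor AHRR (0.74 ± 0.19, edgeR adjusted p = 0.0164). EREG thus moved in opposite directions in the fusion and cytokinesis failure populations of MDA-MB-231. Without both noisier libraries EREG was at 0.44 and AHRR at 0.85 after cytokinesis failure (edgeR adjusted p = 0.00108 and 0.00363), 2 target genes fell there in place of 1, and the slippage counts were the same.

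**Figure D3:**
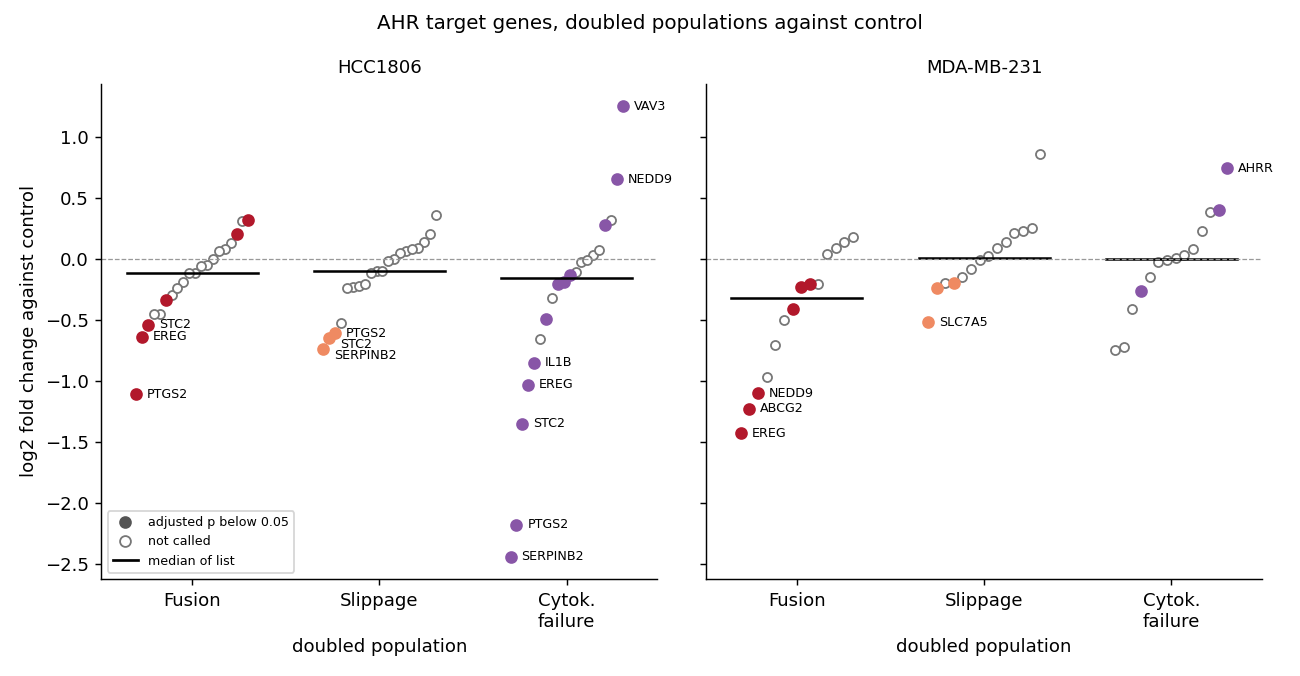
Log2 fold change against control (y axis) of the tested receptor target genes in each doubled population (x axis) of HCC1806 (20 genes, left) and MDA-MB-231 (14 genes, right). Each point is a gene, filled where the edgeR adjusted p is below 0.05 and named where it also passed 0.5 in size, and the line is the median of the list. The lists spread widest in HCC1806 cytokinesis failure, from SERPINB2 at -2.44 to VAV3 at 1.25, and the lowest median, -0.32, is in MDA-MB-231 fusion.

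The proteins that hold, partner or modulate the receptor were called at most 4 at a time. Of 18 listed (AHRR and ARNT2 among them), 17 were tested in HCC1806. By edgeR and by DESeq2 0 were called in fusion or slippage, where their medians were -0.06 and -0.04 and 4 and 5 had an unadjusted edgeR p below 0.05. EdgeR called 10.9% and 3.33% of all genes in those populations. After cytokinesis failure 0 rose and 4 fell (median -0.08), where 8.37% of all genes rose and 8.63% fell. They were led by RELB, the NF-κB subunit that pairs with the receptor, at -1.40 ± 0.35 (edgeR adjusted p = 0.00218). Its level was 2.35, 1.36 and 2.59 CPM in cytokinesis failure, against 5.7, 3.82 and 7.01 CPM in control. In MDA-MB-231, where all 18 were tested, 2 rose and 1 fell in fusion, where 9.34% of all genes rose and 8.11% fell, among them the ubiquitin ligase scaffold CUL4B (0.40 ± 0.087, edgeR adjusted p = 0.000987) and the coactivator NCOA7 (-0.35 ± 0.11, edgeR adjusted p = 0.0167). DESeq2 called 1 of these higher and 0 lower. In slippage 0 rose and 1 fell, and in cytokinesis failure 1 rose (AHRR) and 2 fell, CUL4B among them (-0.33 ± 0.094, edgeR adjusted p = 0.0293), where 2.29% of all genes rose and 2.35% fell. Without both noisier libraries CUL4B was at -0.35 (edgeR adjusted p = 0.0206), and 2 genes of the list fell in slippage in place of 1, where 2.91% of all genes fell.

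Of 16 genes of tryptophan and kynurenine metabolism, the source of some receptor ligands, 6 were tested in HCC1806 and 7 in MDA-MB-231, and the 9 tested in neither line reached at most 6 counts in a library. In HCC1806, 1 rose and 1 fell in fusion, 0 rose and 1 fell in slippage, and 1 rose and 2 fell in cytokinesis failure. There, 10.9%, 3.33% and 17% of all genes were called. In MDA-MB-231, 0 were called in fusion, 1 fell in slippage and 1 rose in cytokinesis failure, where 17.4%, 6.18% and 4.64% of all genes were called. KYNU, kynureninase, which breaks down kynurenine, fell in all 3 doubled populations of HCC1806, with fold changes of -0.45, -0.42 and -0.55 in fusion, slippage and cytokinesis failure (edgeR adjusted p = 0.00954, 0.0421 and 0.000584). It rose in MDA-MB-231 cytokinesis failure, with a fold change of 1.04 ± 0.25 (edgeR adjusted p = 0.00623), at 13.7, 11.8 and 9.72 CPM against 5.51, 3.58 and 7.5 CPM in control. SLC3A2, the heavy chain of the large amino acid transporter, fell in HCC1806 cytokinesis failure (-0.24) and MDA-MB-231 slippage (-0.33), and CCBL2, kynurenine aminotransferase 3 (now named KYAT3), rose in HCC1806 fusion (0.62 ± 0.20, edgeR adjusted p = 0.0308) and cytokinesis failure (0.62 ± 0.20, edgeR adjusted p = 0.0175). The level of CCBL2 was 16, 17.7 and 13.8 CPM in HCC1806 cytokinesis failure, against 10.4, 12.6 and 8.35 CPM in control. The list had no other call. DESeq2 called none of these in HCC1806 fusion or slippage, none that rose in HCC1806 cytokinesis failure and none in MDA-MB-231 cytokinesis failure. Without both noisier libraries KYNU was at 0.94 in MDA-MB-231 cytokinesis failure (edgeR adjusted p = 0.0192), where SLC3A2 was then also called (-0.25, edgeR adjusted p = 0.00538), and SLC3A2 was at -0.24 in slippage.

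Among the other bHLH-PAS proteins, the family of AHR and ARNT, 8 of 12 were tested in HCC1806 and 7 in MDA-MB-231. In HCC1806, 0 rose and 2 fell in fusion, 0 were called in slippage by edgeR or DESeq2 (1 with an unadjusted edgeR p below 0.05), and 1 rose and 2 fell in cytokinesis failure. Of all genes, 5.33% rose and 5.55% fell in fusion, 3.33% were called in slippage, and 8.37% rose and 8.63% fell in cytokinesis failure. EPAS1, which encodes the hypoxia factor HIF-2α, fell in fusion (-0.41 ± 0.062, edgeR adjusted p = 3.73e-07) and rose in cytokinesis failure (0.35 ± 0.057, edgeR adjusted p = 1.26e-06). In MDA-MB-231, 1 fell in fusion, 0 were called in slippage by edgeR or DESeq2 (3 with an unadjusted edgeR p below 0.05) and 1 rose in cytokinesis failure, both calls being HIF1A, at -0.25 and 0.28. Of all genes, 8.11% fell in that fusion population, 6.18% were called in slippage and 2.29% rose in cytokinesis failure. Of 24 genes for P450 partners and oestrogen metabolism, 11 were tested in HCC1806 and 12 in MDA-MB-231, and 1 rose and 1 fell in HCC1806 fusion, 1 rose in slippage, and 2 rose and 2 fell in cytokinesis failure. The shares of all genes called were 10.9%, 3.33% and 17% in those populations. GSTP1, a glutathione transferase, rose in all 3 (0.22, 0.17 and 0.13 in fusion, slippage and cytokinesis failure, edgeR adjusted p = 7.38e-07, 0.000603 and 0.00326). In MDA-MB-231, 1 of these genes fell in each doubled population, where 8.11%, 2.91% and 2.35% of all genes fell in fusion, slippage and cytokinesis failure. Of 21 ADP-ribosyltransferases and hydrolases, relatives of TIPARP, 17 were tested in either line. By edgeR and by DESeq2 0 were called in HCC1806, with 0, 1 and 2 at an unadjusted edgeR p below 0.05 in fusion, slippage and cytokinesis failure. EdgeR called 10.9%, 3.33% and 17% of all genes there. In MDA-MB-231 edgeR called PARP14 alone, at -0.37 in fusion and -0.51 in cytokinesis failure, and DESeq2 called 0 in fusion and 1 in cytokinesis failure. Of the 17 tested there, 6, 2 and 2 had an unadjusted edgeR p below 0.05 in fusion, slippage and cytokinesis failure. The shares of all genes called by edgeR were 17.4%, 6.18% and 4.64%. With the noisier pair left out, PARP14 was at -0.46 (edgeR adjusted p = 0.00801) and HIF1A at 0.27 (edgeR adjusted p = 6.49e-05) in cytokinesis failure. Then 1 bHLH-PAS gene (ARNT2, -0.76) and 1 ADP-ribosyltransferase (PARP1, -0.17) fell in slippage in place of 0 (edgeR adjusted p = 0.0367 and 0.046).

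Of the genes around CYP1B1, 0 to 3 of 10 were called against control in a population. CYP1B1 lies at chr2:38067509-38076151, and the nearest tested genes were RMDN2 at lower and ATL2 at higher coordinates. In HCC1806 fusion RMDN2 was at -0.64 ± 0.38 (edgeR adjusted p = 0.312) and ATL2 at 0.00 ± 0.076 (edgeR adjusted p = 0.998). Over the 10 nearest tested genes, 5 on each side, the median was -0.09 for fusion, 0.06 for slippage and -0.02 for cytokinesis failure of HCC1806, with 0 rising and 1 falling, 1 rising and 0 falling, and 3 rising and 0 falling. The shares of all genes called in those populations were 10.9%, 3.33% and 17%. In MDA-MB-231 the medians were 0.20, -0.09 and 0.03, with 2 rising and 1 falling in fusion, where 17.4% of all genes were called. EdgeR called 0 in slippage and cytokinesis failure, where 2 and 1 had an unadjusted p below 0.05 and 6.18% and 4.64% of all genes were called. The called neighbours were named after their values were seen. CDC42EP3 fell in HCC1806 fusion (-0.24 ± 0.058, edgeR adjusted p = 0.00248) and rose in HCC1806 cytokinesis failure (0.39 ± 0.054, edgeR adjusted p = 1.87e-08) and MDA-MB-231 fusion (0.37 ± 0.055, edgeR adjusted p = 4.17e-06). The level of CYP1B1 was lower than control in each of these populations, by description without a test. QPCT fell in MDA-MB-231 fusion (-1.36 ± 0.34, edgeR adjusted p = 0.00405) and rose in HCC1806 cytokinesis failure (0.99 ± 0.34, edgeR adjusted p = 0.0329). GALM rose in HCC1806 slippage (0.45, edgeR adjusted p = 0.00284) and cytokinesis failure (0.64, edgeR adjusted p = 1.75e-07), and HNRNPLL rose in MDA-MB-231 fusion (0.47, edgeR adjusted p = 0.000947). Copy number of the region was not analysed here.

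No other member was among the 5 genes whose pattern came nearest to that of CYP1B1. Patterns were compared as the mean log2 CPM of the 8 groups, centred within each line, and likeness was measured as the root mean square difference over those groups among 10368 genes tested in both lines. The 5 nearest were ST7L (0.124), ULBP1 (0.144), GPCPD1 (0.16), CLCF1 (0.161) and TTLL7 (0.164). Some of these were scarce, which limits how well their patterns are known. In HCC1806 fusion, ST7L averaged 1.44 ± 0.633 CPM and TTLL7 1.77 ± 0.994 CPM (SD). ULBP1 averaged 7.66 ± 1.13, CLCF1 10 ± 2.05 and GPCPD1 12.5 ± 2.48 CPM there. TIPARP came next among the members, at rank 125 with 0.241, followed by AHR at rank 2759 (0.324), CYP1A1 at rank 6870 (0.378) and ARNT at rank 7637 (0.391). ULBP1, a ligand of the receptor NKG2D, had fold changes of -0.47, -0.01 and -0.38 in HCC1806 fusion, slippage and cytokinesis failure and of -0.81, -0.23 and -0.17 in MDA-MB-231. CLCF1, a cytokine of the interleukin-6 family, had -0.49, -0.11 and -0.43 in HCC1806 and -0.51, -0.14 and -0.08 in MDA-MB-231. The measure ranks genes by their values alone, over 8 group means of 3 libraries, and lends no test.

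**Figure D4:**
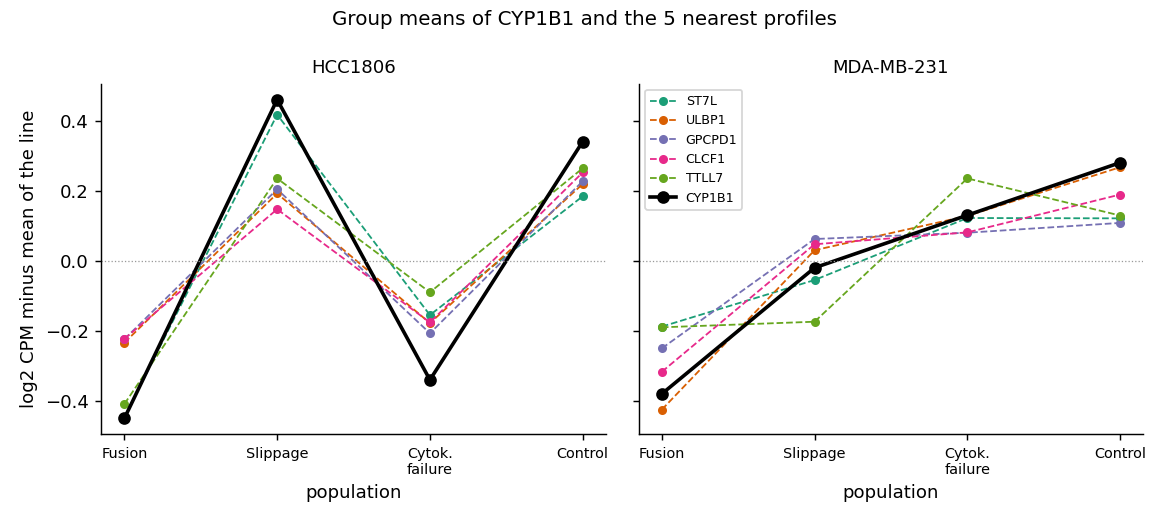
Mean log2 CPM of each group minus the mean of its line (y axis) for CYP1B1 (black) and the 5 genes with the nearest pattern (dashed), by population (x axis) and line (panels). Lines join groups only to guide the eye. CYP1B1 lies at -0.45 in fusion, 0.46 in slippage, -0.34 in cytokinesis failure and 0.34 in control of HCC1806, and at -0.38, -0.02, 0.13 and 0.28 in the same groups of MDA-MB-231.

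Marker lists for other cells were set beside these values. Of 8 immune markers, 5 were above 0 in each MDA-MB-231 group, and their summed level was 90.3 to 108 CPM in fusion, 107 to 111 CPM in slippage and 104 to 121 CPM in cytokinesis failure, against 68 to 77.1 CPM in control. CD68, a lysosomal protein that many cells express, reached 421 counts in a library of MDA-MB-231, while LYZ and CSF1R reached 11 and CD14 reached 3. CD68 made up most of the sum, with a mean of 68.5 of 72.7 CPM in control and 108 of 112 CPM in cytokinesis failure. It was the only immune marker tested, with 0.48, 0.62 and 0.65 in MDA-MB-231 fusion, slippage and cytokinesis failure (edgeR adjusted p = 2.52e-05, 6.11e-07 and 1.69e-07). In HCC1806 cytokinesis failure it fell (-0.45, edgeR adjusted p = 0.00245). In HCC1806 the sum was 36.5 to 40 CPM in fusion, 30.2 to 32.7 CPM in slippage and 26.4 to 31 CPM in cytokinesis failure, against 37.1 to 39.6 CPM in control. Of 8 fibroblast markers, 2 to 5 were above 0 in a group, and their sum lay between 1.75 and 6.67 CPM in all libraries. The part of these levels in the results was not tested.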

How the data were processed

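The authors deposited estimated counts per gene and, in a separate table, TPM per gene. STAR and Salmon are named without versions, with GRCh38 (hg38) as the build, per the submitters' processing notes. The annotation, strand setting and any removal of duplicate reads are not given in the sources used here. Every column was mapped to labelled samples, and estimated counts were rounded (4.41% were fractional, by more than 1e-06).

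Each line was fitted apart (12 libraries, 4 groups) with edgeR 4.0.16 under R 4.3.3, after filterByExpr and TMM scaling, by robust quasi-likelihood F-tests with Benjamini-Hochberg adjustment. Line differences and the parental comparison came from a fit of all 24 libraries. Standard errors are the fold change over the root of F, so intervals and p-values need not match exactly. P-values measure the spread between replicates of 1 population. The tests were tried on simulated counts whose spread was set to the same value for all genes. Against control, 54% to 65% of log2 changes of 0.5 and 82% to 90% of changes of 1 were recovered. For the line difference with fusion, 65.5% of log2 changes of 1 were recovered. A change that was not called can therefore be a missed one.

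The members and lists were chosen with earlier results of these data known. Named genes are the members, up to 4 called genes of largest mean change per list, the nearest tested neighbours of CYP1B1 and the 5 nearest patterns; others are said to be chosen later. The values of 1 listed gene are not reported here. AHRR, ARNT2, NQO1 and UGT1A1 are each in 2 lists. Listed symbols missing from the table were matched by older name through RefSeq. Alternatives were DESeq2 1.42.0, RLE factors, limma 3.58.1 on TPM with a pseudocount of 1 or of 0.1 before log2, the unfiltered table, a stricter filter (20 counts in 3 libraries), fits on only the 6 libraries at hand, omission of each replicate, and a replicate block; leaving out both noisier libraries was added after the data were seen. Positions and sequences are from RefSeq GRCh38.p14.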

Additional observations from a re-analysis of the deposited data

Results flagged for a closer look

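The results below stand out because the change against control differed between the lines by a test of the difference itself, in edgeR's quasi-likelihood fit of all 24 libraries; each value is the HCC1806 change minus the MDA-MB-231 change on the log2 scale. TIPARP differed by -1.03 ± 0.21 for fusion (edgeR adjusted p = 0.000159), lower than control in 3 of 3 HCC1806 fusion libraries and higher in 3 of 3 MDA-MB-231 fusion libraries. TIPARP also differed by -0.97 ± 0.20 for cytokinesis failure (edgeR adjusted p = 0.000303), again with 3 of 3 libraries below all HCC1806 control libraries and 3 of 3 above all MDA-MB-231 control libraries. ARNT differed by 0.57 ± 0.18 for fusion (edgeR adjusted p = 0.0226), with 3 of 3 fusion libraries above control in HCC1806 and 3 of 3 below control in MDA-MB-231. That ARNT call was lost with DESeq2 and in several omissions of a replicate. AHR differed by -0.32 ± 0.093 for fusion (edgeR adjusted p = 0.012), with 3 of 3 HCC1806 fusion libraries below all control libraries and 2 of 3 MDA-MB-231 fusion libraries above all control libraries. That AHR call was lost on TPM, without replicate 1 of MDA-MB-231 control and without replicate 3 of MDA-MB-231 fusion. Of all genes, 12% were called for the line difference with fusion and 6.53% for that with cytokinesis failure.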

How the results depend on the processing

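No value of a member changed direction with a call under any alternative. The CYP1B1 values against control kept their direction under all of them; in MDA-MB-231 fusion the value was -0.77 on log2(TPM + 1) and -0.78 on log2(TPM + 0.1). The CYP1B1 line difference for fusion was -0.04 and -0.05 on those scales and -0.23 to -0.07 with 1 replicate left out. On TPM, CYP1A1 in MDA-MB-231 fusion passed (-0.50 and -0.63, limma adjusted p = 0.041 and 0.0486). The median of all genes in that comparison moved to -0.11 and -0.12 on those scales. Relative to that median, CYP1A1 was at -0.39 and -0.51 (edgeR -0.56) and CYP1B1 at -0.66 on both (edgeR -0.65). AHR in MDA-MB-231 fusion was lost with DESeq2 (0.22) and on TPM (0.09 and 0.10), and ran from 0.15 to 0.30 with 1 replicate left out. CYP1A1 in MDA-MB-231 slippage was lost on log2(TPM + 0.1) (-0.86) and without both noisier libraries (-0.73), and ran from -0.99 to -0.64 with 1 replicate left out. CYP1A1 in MDA-MB-231 cytokinesis failure was lost on TPM (-0.58 and -0.74), and ran from -0.93 to -0.58 with 1 replicate left out (lost without control 3, cytokinesis failure 2 or cytokinesis failure 3).

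Replicate numbers did not pair the samples: 0 of 18 same-numbered pairs in either line had a correlation of deviations above 0.1, and 3 of 12 libraries correlated best with their own number. A replicate block moved counts of called genes by 0.766 to 1 times over 16 contrasts and took CYP1A1 in MDA-MB-231 cytokinesis failure to -0.81 with an edgeR adjusted p of 0.0569, with no other call of a member changed.

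DESeq2 called 37.2% to 94.4% as many genes as edgeR. Against control it called 630, 142 and 975 genes in HCC1806 fusion, slippage and cytokinesis failure (edgeR 1247, 382 and 1950), and 1197, 331 and 302 in MDA-MB-231 (edgeR 1993, 706 and 530). It lost the member calls between doubled populations for AHR, ARNT and TIPARP, and the ARNT line difference (0.56, adjusted p = 0.0799). On TPM the AHR line difference was lost (-0.23, limma adjusted p = 0.202), as were all member calls of AHR and ARNT, and that of TIPARP, between HCC1806 populations. Leaving out 1 library took the genes called to as few as 217 in HCC1806 slippage, 370 in MDA-MB-231 slippage and 318 in MDA-MB-231 cytokinesis failure. Of the receptor targets, DESeq2 called 1 higher in HCC1806 fusion (edgeR 2), 0 higher in HCC1806 cytokinesis failure (edgeR 3) and 1 higher in MDA-MB-231 cytokinesis failure (edgeR 2). The causes were not tested. CYP1A1 had 4 to 54 counts in a library, which limits its precision.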
